A study of Rattus norvegicus with 26 samples.

Results

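The livers examined here came from male Sprague-Dawley rats 36 hours after resection of the left lateral lobe (1/3 PH, partial hepatectomy), and they were compared with normal livers of rats without PH. Each group held 3 rats with 1 array each, of 26 arrays in the series, and the RNA was total RNA of the right lobe, which was not resected in the 1/3 PH rats. The miRNAs compared were the 133 of 677 on the array with a detection flag on all 3 arrays of the normal group, the 36-hour group or both, and 117 of them were detected on all 6 arrays. Rats 24 hours after 1/3 PH and 24 or 36 hours after the larger 2/3 PH, again with 3 arrays each, were tested directly against the 36-hour 1/3 PH livers. Values at 6 h (2 arrays) and 12 h (3 arrays) after 1/3 PH are given for a few miRNAs without a test against 36 h. Titles and characteristics give 36 hours for all 3 rats, while the source labels give 36, 37 and 38 hours, and the word sham stands in the protocol field of the normal livers. The age of the rats is not given in the sources used here.

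MicroRNAs are short RNAs that guide silencing proteins to messenger RNAs, and the bases near their 5′ end, the seed, set most of the pairing. After loss of liver mass, remaining hepatocytes can leave rest, copy their DNA and divide; a large resection drives many of them through S phase, whereas a small one is known to prime them with little DNA synthesis. The miR-17 and miR-106b families lower inhibitors of cell cycle entry, and miR-106b itself lies within the gene Mcm7. miR-34a is induced by p53, and the miR-15/16 family lowers cyclins. The study used the smaller operation as the comparator of the larger, so the question here is how far the miRNAs of the liver differ from normal 36 hours after it.

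The results below turn on miR-34a, which had the lowest p against normal liver, and on 3 seed groups of cell cycle miRNAs that lay near their normal level after 1/3 PH and in part differed from 2/3 PH. Their mature sequences are shown for that reason, with the seed (bases 2 to 8) in capitals, 5′ to 3′, from RefSeq (build GRCr8); all 13 miRNAs looked up were matched by name. miR-34a has a seed of its own among them.
miR-34a-5p: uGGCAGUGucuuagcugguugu
The next 5 share the seed AAAGUGC.
miR-93-5p: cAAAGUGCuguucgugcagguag
miR-106b-5p: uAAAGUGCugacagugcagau
miR-17-5p: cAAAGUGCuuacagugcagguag
miR-20a-5p: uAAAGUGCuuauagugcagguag
miR-20b-5p: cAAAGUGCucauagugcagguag
The next 2 share AUUGCAC.
miR-25-3p: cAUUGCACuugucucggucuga
miR-92a-3p: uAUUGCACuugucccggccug
The last 5 share AGCAGCA.
miR-15b-5p: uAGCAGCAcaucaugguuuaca
miR-16-5p: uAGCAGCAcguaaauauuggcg
miR-195-5p: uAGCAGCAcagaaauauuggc
miR-497-5p: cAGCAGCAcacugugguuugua
miR-322-5p: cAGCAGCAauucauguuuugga

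In GRCr8, miR-25 (chr12:22156652-22156673), miR-93 (chr12:22156894-22156916) and miR-106b (chr12:22157103-22157123) lie on the minus strand within the span of Mcm7, a gene for a subunit of the replicative helicase, and together form the miR-106b~25 cluster. miR-17-5p (chr15:98587861-98587883), miR-20a (chr15:98588318-98588340) and miR-92a (chr15:98588602-98588622) lie on the plus strand in the miR-17~92 cluster, and the sequences of miR-17-5p and miR-92a are also annotated on chromosome X near miR-20b (chrX:137343239-137343261). miR-15b (chr2:155555197-155555218) and miR-16 (chr2:155555343-155555364) lie within the span of Smc4, which encodes a condensin subunit. miR-34a (chr5:165815971-165815992, plus strand) lies within no protein-coding gene of the annotation.

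Signals were divided by the 75th percentile of the array's reliably detected probes and are given as log2; values under an array's own floor, the lowest scaled signal of a probe well above background, were set to that floor. The 3 arrays of 1/3 PH at 36 h stood together on 1 slide of 1 scan day, with the 3 arrays of 2/3 PH at 24 h, whereas the normal livers were on 3 slides and 3 scan days, and normal replicate 1 shared the scan day. Slide as a fixed term and group therefore cannot be told apart in the comparison with normal liver. The software detected 138, 132 and 138 miRNAs on the arrays of 36 h replicates 1, 2 and 3, against 140, 151 and 151 in the normal livers (exact permutation test, two-sided, p = 0.1, the smallest that 3 against 3 arrays allow). Total gene signal was 50198, 51965 and 58266 units against 49552, 44858 and 68366 (exact permutation p = 1). Floors were higher after 1/3 PH, at -4.29, -3.81 and -4.22, than in normal liver, at -4.34, -5.15 and -4.81 (exact permutation p = 0.1).

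Some arrays stood apart in a few miRNAs, by a distance that was chosen after the values were seen. The array of 36 h replicate 2 lay over 1 log2 unit above both others of its group in 6 miRNAs (miR-125a-3p, miR-139-3p, miR-3561-5p, miR-3562, miR-743a and miR-878). Normal replicate 2 lay as far below the other normal livers in 5 (miR-1*, miR-212, miR-296*, miR-1249 and miR-3549), 4 of them at its floor. Normal replicate 1 was as far above the others in 4 (miR-139-3p, miR-466b, miR-500 and miR-3588) and as far below them in 1 (miR-19a). The array of 36 h replicate 1 was as far below the others of its group in 3 (miR-139-3p, miR-378 and miR-743a). Several differences below are also given without one of these arrays. The array of 36 h replicate 2 stood at slide position 2_2 and had miR-125a-3p at -0.84. Arrays at position 1_2 had -1.99 and -1.35 (1/3 PH at 6 and 12 h), -1.29 (2/3 PH, 24 h), and -0.75 and -1.14 (2/3 PH, 36 h). In the groups used here, arrays at positions ending in _3 or _4 had -3.44 to -2.32. miR-139-3p was also high at position 2_3 (-1.36, 24 h replicate 3 of 1/3 PH). Slide position was not tested.

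With the scaling used here, the liver miRNAs lay close to normal at 36 h after 1/3 PH. The brightest miRNAs were nearly the same in both groups: miR-122, the main hepatocyte miRNA, had a mean log2 signal of 7.43 ± 0.13 (SD, n = 3) against 7.38 ± 0.14 in normal liver, and miR-21, which is known to increase in growing or injured tissue, 4.74 ± 0.09 against 4.57 ± 0.29. The corresponding values were 3.71 ± 0.18 and 3.66 ± 0.14 for miR-22, 3.24 ± 0.10 and 3.23 ± 0.08 for let-7a, and 2.95 ± 0.03 and 3.01 ± 0.04 for let-7f. The median difference over the 133 miRNAs was 0.06 (36 h after 1/3 PH minus normal, log2) and the median absolute difference 0.15, beside a median SE of 0.215.

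No miRNA passed an adjusted p of 0.05 in limma, with 9 groups fitted together over 144 miRNAs (0 called, 0%; smallest adjusted p = 0.342). At an unadjusted p under 0.05, 7 of 144 (4.86%) were found, 5 higher and 2 lower than normal. Under the 21 alternative settings the count of calls was also 0, and the unadjusted count ran from 0 to 13. Precision sets how much this shows: the 95% confidence interval of the difference lay within ±0.5 for 47 of the 133 miRNAs and within ±1 for 100. Pairs of arrays correlated across the 133 miRNAs at Pearson r = 0.944 (normal replicate 2 and 36 h replicate 2) to 0.991 (normal replicate 3 and 36 h replicate 3), so the closest pair crossed the groups; miRNAs are not independent replicates.

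**Figure D1:**
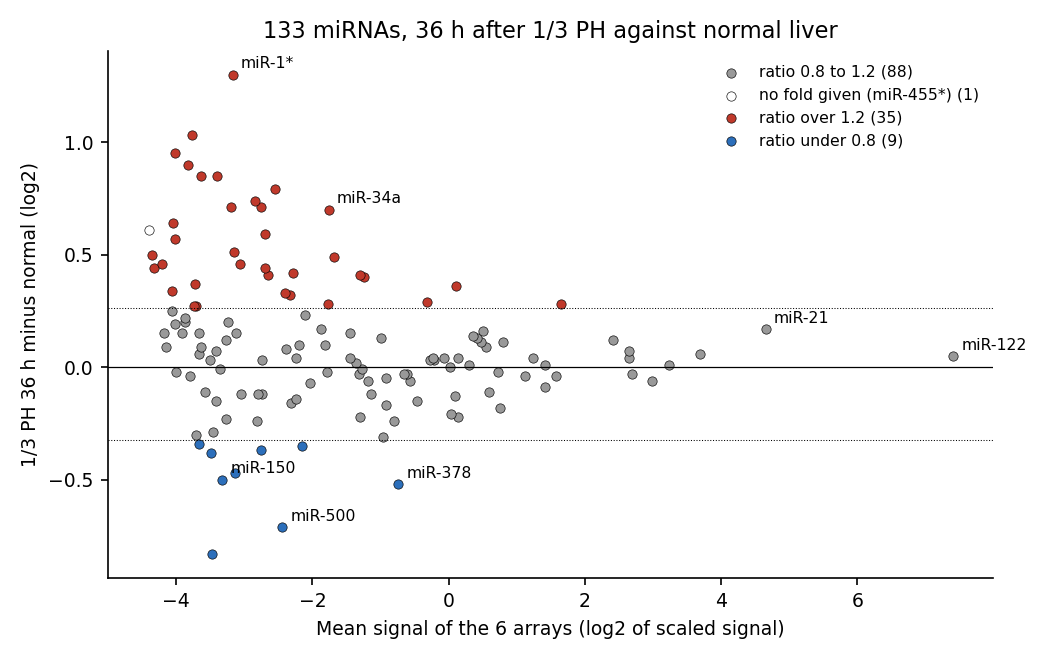
Difference between 36 h after 1/3 PH and normal liver (log2, y axis) against the mean log2 scaled signal of the 6 arrays (x axis) for 133 miRNAs, 1 point each, with dotted lines at ratios of 0.8 and 1.2. The 35 miRNAs over 1.2 and 9 under 0.8 lie mostly at low signal, and bright miRNAs such as miR-122 (0.05) and miR-21 (0.17) lie near 0.

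The lowest p belonged to miR-34a, a p53-induced miRNA that restrains cell cycle entry. Its log2 signal was -2.17, -2.07 and -2.09 in normal replicates 1, 2 and 3, and -1.06, -1.79 and -1.37 in 36 h replicates 1, 2 and 3. All 3 resected livers lay above all 3 normal livers, and the normal livers were close together while the resected ones spread over a wider range. The difference was 0.70 (SE 0.215, 95% CI 0.25 to 1.15, ratio 1.63; limma unadjusted p = 0.00403, adjusted p = 0.342). It was 0.77 against the 1 normal liver of the same scan day, 0.52 with scan day as a block (adjusted p = 0.658), and 0.53 to 0.89 when 1 array was left out. It was 0.33 after normexp background correction and 0.13 with scaling over all probes. The sign was the same in all 21 alternatives, with adjusted p from 0.128 to 0.997.

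miR-150, a miRNA of mature lymphocytes, went the other way. Its log2 signal was -3.18, -3.03 and -3.05 in the normal livers and -3.38, -3.61 and -3.77 at 36 h. All 3 resected livers were below the normal ones, although the nearest values of the groups lay close together. The difference was -0.50 (SE 0.157, 95% CI -0.83 to -0.17, ratio 0.708; limma unadjusted p = 0.00475, adjusted p = 0.342, and 0.245 to 0.997 over the alternatives). With scan day as a block it was -0.40 (adjusted p = 0.658), and after normexp background correction it was 0.00. In such whole-tissue RNA, fewer cells of a type and less RNA per cell cannot be told apart.

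Of the 5 others with an unadjusted p under 0.05, miR-378, a miRNA encoded in a gene of mitochondrial energy metabolism, rests on 1 array. Its signal was -0.39, -0.40 and -0.65 in normal liver and -1.79, -0.61 and -0.59 at 36 h, so that 36 h replicate 1 alone was low. The difference of -0.52 (limma unadjusted p = 0.0439) was -0.12 without that array. The opposite strand of the same hairpin, miR-378*, had a difference of -0.47, and -0.22 without it.

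miR-200a, an epithelial miRNA, had values of -4.34, -3.95 and -4.81 in normal liver and -3.16, -3.81 and -4.22 at 36 h, so that the groups overlap, and 4 of the 6 values stood at an array's floor. Its difference of 0.64 (limma unadjusted p = 0.0447) was 0.21 (limma unadjusted p = 0.249) when all arrays were given the floor of 36 h replicate 2, an alternative chosen after the floors were seen. It was 0.35 without 36 h replicate 1 and 0.41 without normal replicate 3. miR-27a, of the miR-23a/27a/24 cluster, had -0.30, -0.52 and -0.56 in normal liver and 0.01, -0.22 and -0.31 at 36 h, with groups that overlap and a difference of 0.29 (limma unadjusted p = 0.0494). miR-3559-5p was higher in 3 of 3 resected livers, at -2.26, -2.21 and -2.26 against -2.71, -2.54 and -2.47 (difference 0.33, limma unadjusted p = 0.0432). For miR-1224 the difference of 0.36 (limma unadjusted p = 0.0497) was 0.15 without 36 h replicate 2, which had the highest value. Each of these 4 had a limma adjusted p of 0.715. miR-27a, miR-3559-5p and miR-1224 changed sign when arrays were scaled by the 75th percentile of all probes, which moved the median of the 133 miRNAs to -0.52.

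**Figure D2:**
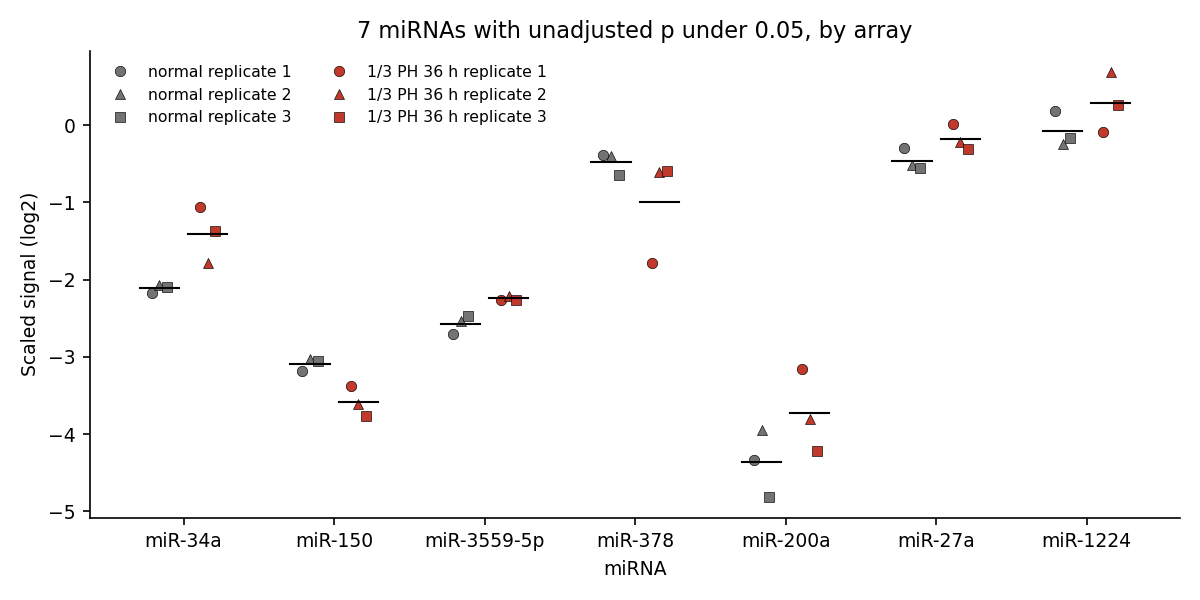
Log2 scaled signal (y axis) of the 7 miRNAs with a limma unadjusted p under 0.05 (x axis), with 1 point per array and lines at group means (grey, normal; red, 36 h after 1/3 PH). The groups do not overlap for miR-34a, miR-150 and miR-3559-5p, and 36 h replicate 1 alone is low for miR-378 at -1.79.

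By the size of the ratio alone, 44 of 133 miRNAs (33.1%) lay under 0.8 or over 1.2, of which 35 (26.3%) were over 1.2 and 9 (6.77%) under 0.8; the other 89 include miR-455*, detected in all 3 normal livers and on no 36 h array, which gave no ratio. Only 7 of the 44 had an unadjusted p under 0.05, and 15 of the 44 had a value at an array's floor. A ratio over 2 was reached by 2 miRNAs, miR-1* (1.30) and miR-3549 (1.03), and none was under 0.5. Both entered the comparison through the 36 h group, being detected in 2 of 3 normal livers, and normal replicate 2 stood at its floor of -5.15. Without that array the differences were 0.64 and 0.60, and neither ratio reached 2. On the same scan day, 24 h replicate 3 of 1/3 PH (-5.04) and 36 h replicate 3 of 2/3 PH (-4.46) also stood at their floors for both. The groups did not overlap for 21 of 133 miRNAs (15.8%), with 16 values higher and 5 lower after 1/3 PH. Of the 16, 13 were detected on all 3 arrays at 36 h, but 5 of these (miR-1*, miR-296*, miR-1249, miR-3544 and miR-3549) entered the comparison through the 36 h group, with normal replicate 2 at its floor. The other 3 (miR-455*, miR-128 and miR-331) were detected in all 3 normal livers and on 0, 1 and 1 arrays at 36 h, where the values of all 3 stood at the higher floors, so that they show no higher expression. miR-128 and miR-331 are among the 35 over 1.2, of which 31 were detected on all 3 arrays at 36 h.

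The number over 1.2 depended on single arrays. Without 36 h replicate 2 it was 22, and 21 of the 35 stayed over 1.2. Without normal replicate 2 it was 32, of which 26 belonged to the 35. Without both arrays 23 were over 1.2 and 16 under 0.8, including 18 of the 35 and 7 of the 9. The number under 0.8 was 12 without 36 h replicate 2, 15 without normal replicate 3 and 9 without normal replicate 1, where 4 of the first 9 remained and 38 were over 1.2. Scaling moved the split as well: 79.5% of the altered miRNAs were over 1.2 in the setting used here, 55.6% after quantile normalization, 60.4% in the table of log2 values that the authors deposited, 100% of 4 miRNAs after normexp background correction and 5.83% with scaling over all probes. With 1 floor for all arrays, 27 were over 1.2 and 8 under 0.8.

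Among miRNAs detected on all 6 arrays, the 10 with the highest differences were miR-702-3p (0.85), miR-125a-3p (0.79), miR-139-3p (0.74), miR-2985 (0.71), miR-743a (0.71), miR-34a (0.70), miR-200a (0.64), miR-409-3p (0.59), miR-3085 (0.51) and miR-345-3p (0.49). Without 36 h replicate 2, miR-125a-3p (0.13), miR-139-3p (-0.07), miR-743a (0.07) and miR-345-3p (0.11) were near 0. miR-702-3p, miR-2985, miR-409-3p and miR-3085 were above all normal livers in 3 of 3 resected livers, with adjusted p = 0.715 each in limma. Without normal replicate 2 their differences were 0.60, 0.39, 0.39 and 0.43. With scan day as a block they were 0.56, 0.40, 0.47 and 0.37 (limma adjusted p = 0.777 each). miR-2985 was -3.76 in normal replicate 2. On the same scan day it was -4.02 in 24 h replicate 3 of 1/3 PH and -3.76 in 36 h replicate 3 of 2/3 PH. A dim 12 h array of 1/3 PH from that day had -1.64. The part of scan day was not tested beyond the block. The 10 lowest were miR-500 (-0.71), miR-378 (-0.52), miR-150 (-0.50), miR-378* (-0.47), miR-210 (-0.38), miR-652 (-0.37), miR-142-3p (-0.35), miR-30b-5p (-0.31), miR-30e* (-0.30) and miR-148b-3p (-0.29). The difference of miR-500 was -0.14 without normal replicate 1, its highest array at -0.96. Single arrays also carried much of others: miR-652 was -0.17 without normal replicate 1, miR-142-3p -0.20, miR-30e* -0.15 and miR-148b-3p -0.11 without normal replicate 2, miR-142-3p -0.21 and miR-30b-5p -0.17 without 36 h replicate 2, and miR-148b-3p -0.17 without 36 h replicate 1. With scan day as a block the differences were -0.63 for miR-652, -0.09 for miR-142-3p and -0.07 for miR-148b-3p. miR-210, which is induced by low oxygen, had -3.78, -3.81 (at the floor) and -3.46 at 36 h against -3.15, -3.29 and -3.45 in normal liver (limma unadjusted p = 0.0806, adjusted p = 0.715), and the nearest values of the groups nearly met.

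The miR-106b~25 and miR-17~92 members in the comparison lay between the limits of 0.8 and 1.2. For miR-19a this held only with normal replicate 1 included. miR-17-5p was over 1.2 when normal replicate 2 or 36 h replicate 3 was left out. In the miR-106b~25 cluster 0 of 3 members passed 1.2 or 0.8, against 33.1% of all 133 miRNAs, with differences of -0.01 for miR-93 (95% CI -0.28 to 0.26), -0.01 for miR-25 (-0.34 to 0.33) and 0.17 for miR-106b (-0.14 to 0.48). miR-93 had log2 signals of -3.28, -3.25 and -3.52 in normal liver and -3.18, -3.44 and -3.46 at 36 h, and the groups overlap, whereas for miR-106b all 3 resected livers lay above all 3 normal livers (limma unadjusted p = 0.266). Of the miR-17~92 miRNAs and paralogs, 6 of the 8 on the array entered the comparison and 0 passed either limit (median -0.04). The differences were 0.19 for miR-17-5p (3 of 6 values at a floor), 0.04 for miR-20a and -0.18 for miR-92a. miR-17-5p had -4.34, -3.79 and -4.21 in normal liver and -3.75, -3.81 and -4.22 at 36 h. miR-19a (-0.12) had -4.01, -2.44 and -2.51 in normal liver and -3.04, -3.13 and -3.15 at 36 h. All 36 h values were below normal replicates 2 and 3, so its place between the limits rests on normal replicate 1. Over all 133 miRNAs the median was 0.06, and 84 were higher and 49 lower than normal.

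In the miR-15/16 family, which shares the seed AGCAGCA, 1 of 5 members was over 1.2 (miR-16, 0.28, 95% CI -0.19 to 0.76) and 0 under 0.8. The shares over all 133 miRNAs were 26.3% and 6.77%. miR-16 had 1.87, 1.18 and 1.46 in normal liver and 1.81, 1.83 and 1.72 at 36 h. The groups overlap, and its place over 1.2 rests on normal replicate 2, the lowest array. miR-15b had 0.23, -0.09 and -0.10 in normal liver and 0.00, 0.08 and -0.03 at 36 h, a difference of 0.00 (95% CI -0.29 to 0.30). The let-7 family, abundant in differentiated tissue, had 0 of 8 members past either limit (median -0.01, range -0.12 to 0.11), against 33.1% of all 133 miRNAs. The same held for 3 of 3 miRNAs of the miR-29 family (median 0.12), which lowers collagens, for 5 of 5 of the miR-30 family (0.02), for 2 of 2 of the miR-26 family (-0.06) and for both miR-103 and miR-107 (median 0.04). Of the miR-23/27/24 clusters, miR-27a alone of 5 passed 1.2 (median 0.01). The set of miR-10, miR-99, miR-100 and miR-125 had 0 of 5 past a limit (median 0.11), and miR-181a (-0.15) and miR-130a (-0.03) were the only members of their families in the comparison.

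Of the liver growth list, miR-378 and miR-378* were under 0.8 and miR-21 was between the limits (3 of 6 in the comparison, median -0.47), against 6.77% under 0.8 of all 133 miRNAs. Both are strands of 1 hairpin and rest on 36 h replicate 1. Without that array they had -0.12 and -0.22, and neither was under 0.8. The list median was -0.01 after normexp correction. In the miR-34 family only miR-34a entered the comparison, as miR-34b, miR-34c and miR-449a were detected on 0 of 6 arrays. Under the scaling over all probes the medians of these lists moved with the median of all miRNAs, for instance to -0.58 for the miR-106b~25 cluster and -0.52 for the hepatocyte list.

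**Figure D3:**
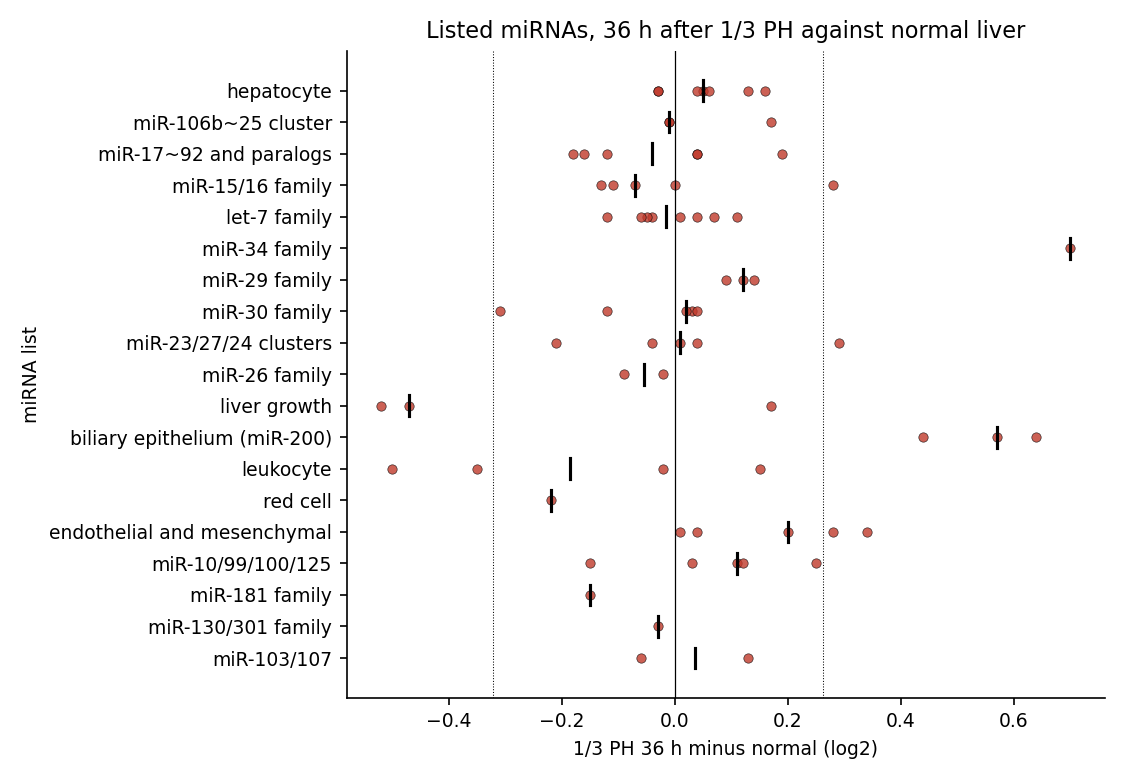
Difference between 36 h after 1/3 PH and normal liver (log2, x axis) for the members of 19 lists in the comparison (y axis), 1 point per miRNA, with a black line at each list's median and dotted lines at ratios of 0.8 and 1.2. The miR-106b~25, miR-17~92, let-7 and miR-30 members lie between the dotted lines. The miR-200 members (median 0.57, and -0.01 with scaling over all probes) and miR-34a (0.70) lie to the right. The miR-200 median is the value of miR-429, which entered the comparison only through the 36 h group.

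Marker miRNAs bore out the tissue label. Of the hepatocyte list, 7 of 8 on the array entered the comparison and 0 passed a limit (median 0.05), and its summed scaled signal was 202, 171 and 195 in normal liver and 186, 216 and 186 at 36 h, of which miR-122 made up 88.0%. All 8 markers of muscle, brain and pancreas (miR-1, miR-133a, miR-206, miR-124, miR-9, miR-375, miR-216a and miR-217) were detected on 0 of 6 arrays, although miR-1*, the other strand of the miR-1 hairpin, was detected on 5. Markers of non-parenchymal cells were measured as well, though signals of different probes do not give relative amounts. Of the leukocyte list 4 of 6 miRNAs on the array entered, 0 were over 1.2 and 2 under 0.8, against 6.77% of all 133 miRNAs (miR-150, -0.50, and miR-142-3p, -0.35, which was -0.09 with scan day as a block; median -0.18), while miR-223 (-0.02) and miR-146a (0.15) lay between. The summed signal of that list was 0.983, 1.14 and 0.931 in normal liver and 1.26, 0.813 and 0.900 at 36 h, with miR-146a as its member of highest signal and miR-142-5p at 0, so that the groups overlap.

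The biliary list holds miRNAs of the miR-200 family that mark bile duct epithelium. It had 3 of 5 members in the comparison, all over 1.2 against 26.3% of all 133 miRNAs. They were miR-200a (0.64), miR-429 (0.57) and miR-200b (0.44, limma unadjusted p = 0.141), while miR-200c and miR-141 were detected on 0 arrays. miR-429 was detected in 2 of 3 normal livers and had 3 of 6 values at a floor. It entered the comparison only through the 36 h group, so its ratio adds no support to the count of the list. The brightest, miR-200b, had -2.50, -2.64 and -3.62 in normal liver and -1.85, -2.46 and -3.14 at 36 h, and the groups overlap. The summed signal of the list was 0.290, 0.283 and 0.117 in normal liver and 0.4998, 0.325 and 0.221 at 36 h. The median difference of the list was 0.57, and it depended on the processing, at -0.01 with scaling over all probes, 0.16 after normexp correction, 0.18 after quantile normalization, 0.21 with 1 floor for all arrays and 1.51 in the deposited values. Endothelial and mesenchymal miRNAs had 2 of 5 over 1.2, against 26.3% of all 133 miRNAs. These were miR-199a-5p (0.34, with 2 of 6 values at a floor) and miR-199a-3p (0.28). The list median was 0.20, and -0.37 with scaling over all probes. It was 0.05 with 1 floor for all arrays, 0.01 after quantile normalization and -0.01 in the deposited values. The sum of the list, mostly miR-126, was 4.61, 3.86 and 3.81 in normal liver against 4.07, 4.76 and 3.77 at 36 h, with miR-145 at 0. The red cell list had miR-451 alone in the comparison (-0.22), with sums of 0.487, 0.407 and 0.428 in normal liver and 0.385, 0.514 and 0.273 at 36 h, and miR-144 was at 0.

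Compared with 24 hours after the same operation, the 36 h livers differed little. limma called 0 of 144 miRNAs, with 6 (4.17%) at an unadjusted p under 0.05, 4 higher and 2 lower at 36 h. The differences (36 h minus 24 h) were -0.24 for miR-34a (95% CI -0.69 to 0.21), -0.02 for miR-150 (-0.35 to 0.31) and -0.28 for miR-15b (-0.57 to 0.02). miR-34a had group means of -2.11 ± 0.06 in normal liver and, after 1/3 PH, -1.77 ± 0.14 at 6 h (n = 2), -1.49 ± 0.41 at 12 h, -1.17 ± 0.20 at 24 h and -1.41 ± 0.37 at 36 h. The value at 36 h thus lay between normal and 24 h, and the arrays at 24 and 36 h overlap. miR-150 had -3.08 ± 0.08 in normal liver and -3.57 ± 0.08, -3.36 ± 0.14, -3.57 ± 0.14 and -3.58 ± 0.20 at 6, 12, 24 and 36 h (detected on 2 of 3 arrays at 12 h).

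The direct comparison of the operations at 36 h gave more differences. Some cell cycle miRNAs were higher after 2/3 PH than after 1/3 PH: miR-15b by 1.33 (95% CI 1.04 to 1.63) and miR-93 by 1.16 (0.89 to 1.43), as was miR-34a, by 1.15 (0.70 to 1.60). miR-17-5p (0.87, 95% CI 0.35 to 1.40) passed the test as well, with 2 of its 3 values after 1/3 PH at a floor, but lost the call with scan day (limma adjusted p = 0.157) or slide (0.0819) as a block and was called in 10 of 21 alternatives (adjusted p 0.00197 to 0.738). miR-22 (-0.49) and miR-26a (-0.55), which are abundant in resting liver, were called lower after 2/3 PH, but not with scan day as a block (limma adjusted p = 0.15 and 0.0782; 0.00619 to 0.994 and 5.44e-05 to 0.963 over the alternatives). In all, limma called 22 of 144 miRNAs (15.3%), 15 higher and 7 lower after 2/3 PH. Of these, the groups overlapped for miR-200b only, which adds no support, as the calls were made from the same values.

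miR-93 was -3.18, -3.44 and -3.46 after 1/3 PH and -2.07, -2.25 and -2.30 after 2/3 PH at 36 h (limma adjusted p = 1.82e-06), and the values of the smaller operation overlap those of normal liver. miR-15b was 0.00, 0.08 and -0.03 after 1/3 PH and 1.30, 1.27 and 1.47 after 2/3 PH (limma adjusted p = 1.62e-06). miR-34a was -1.06, -1.79 and -1.37 after 1/3 PH and -0.03, -0.59 and -0.16 after 2/3 PH (limma adjusted p = 0.00173), so that its order was normal, 1/3 PH, 2/3 PH in group means. Of the miR-106b~25 cluster 3 of 3 members passed the test as higher, of the miR-17~92 list 4 of 7, and of the 5 miRNAs with the AAAGUGC seed 4, against 15 higher among all 144 (15.3% called in either direction), with miR-20a at 0.67 (adjusted p = 0.103). Of the 5 with the AGCAGCA seed, miR-15b was called higher and miR-195 lower (-0.54, adjusted p = 0.0472), and their median was -0.19. With slide as a random block miR-93 and miR-25 of the miR-106b~25 cluster stayed called, while miR-106b, all 4 of the miR-17~92 list and miR-195 did not; with scan day as a block all 3 of the cluster and miR-18a, miR-20b-5p and miR-92a stayed, while miR-17-5p and miR-195 did not. The median over all 144 was -0.12.

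**Figure D4:**
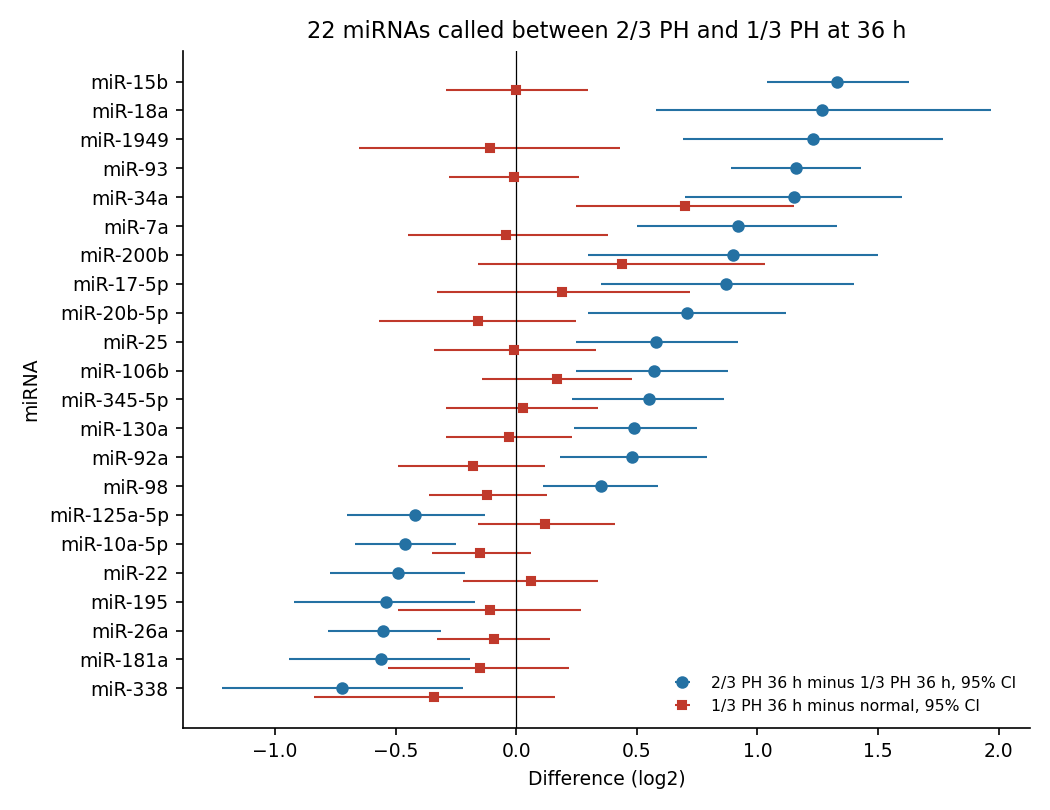
Differences (log2, x axis) with 95% confidence intervals for the 22 miRNAs that limma called between 2/3 PH and 1/3 PH at 36 h (y axis), with 2/3 PH minus 1/3 PH in blue and 1/3 PH minus normal in red (miR-18a, outside the comparison with normal, has no red point; floors enter the values of miR-18a, miR-17-5p, miR-1949 and miR-338). The red intervals include 0 except that of miR-34a (0.25 to 1.15), which has an adjusted p of 0.342.

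The arrays of the 2 operations at 36 h shared no slide or scan day. With scan day as a block 13 miRNAs were called, all higher after 2/3 PH and 10 of them among the 22, and with slide as a random block 9 were, all among the 22. miR-93 (1.28, adjusted p = 5.83e-05 with the day block), miR-15b (1.51, 3.47e-05) and miR-34a (1.42, 0.00227) were called in both. Over all 21 alternatives their limma adjusted p ran from 9.46e-07 to 0.466, 1.2e-07 to 0.396 and 0.000488 to 0.738, each with the same sign throughout. Without scaling 0 were called, after normexp correction 1, and with scaling over all probes 5, all higher; leaving out 36 h replicate 2 or 3 of 1/3 PH gave 11 and 8 calls, and leaving out replicate 1 of 2/3 PH gave 7. miR-338, called lower, was detected on 1 of 3 arrays after 1/3 PH and on 0 after 2/3 PH, and floors enter the values of both groups, so that its fitted value is no measure of the fold; after normexp correction its sign turned (0.51).

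The 2/3 PH livers at 24 h were hybridised on the same slide as the 36 h livers of 1/3 PH, so that slide and scan day were shared, though time and operation both differ. limma called 10 of 144 miRNAs (6.94%), 7 lower and 3 higher in the 1/3 PH livers. miR-93 was lower by 0.97 on the log2 scale, with -3.18, -3.44 and -3.46 against -2.16, -2.39 and -2.61 (difference -0.97, 95% CI -1.24 to -0.71, adjusted p = 4.96e-05). The other miRNAs that were lower were miR-1949 (-1.19, with 36 h replicate 2 at its floor), miR-20a (-0.93), miR-20b-5p (-0.92), miR-17-5p (-0.89, with 36 h replicates 2 and 3 at their floors), miR-92a (-0.58) and miR-15b (-0.51), and miR-652* (0.87), miR-22 (0.46) and miR-26a (0.38) were higher. For each of the 10 the 3 arrays of the groups did not overlap. The calls were made from the same values, so this adds no support to them. miR-34a had a difference of -0.54 (limma adjusted p = 0.163), and miR-25 and miR-106b of -0.49 (adjusted p = 0.0774) and -0.39 (adjusted p = 0.147).

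Of these 10 miRNAs, 8 were also called between the operations at 36 h; both comparisons use the same 1/3 PH arrays. The count was 0 without scaling, after normexp correction and with scaling over all probes, 11 after quantile normalization (9 lower, 2 higher) and 6 with scaling to total gene signal (5 lower, 1 higher). Each array left out gave fewer calls: 2, 3 and 4 without 2/3 PH replicates 1, 2 and 3, and 7, 1 and 2 without 1/3 PH replicates 1, 2 and 3.

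**Figure D5:**
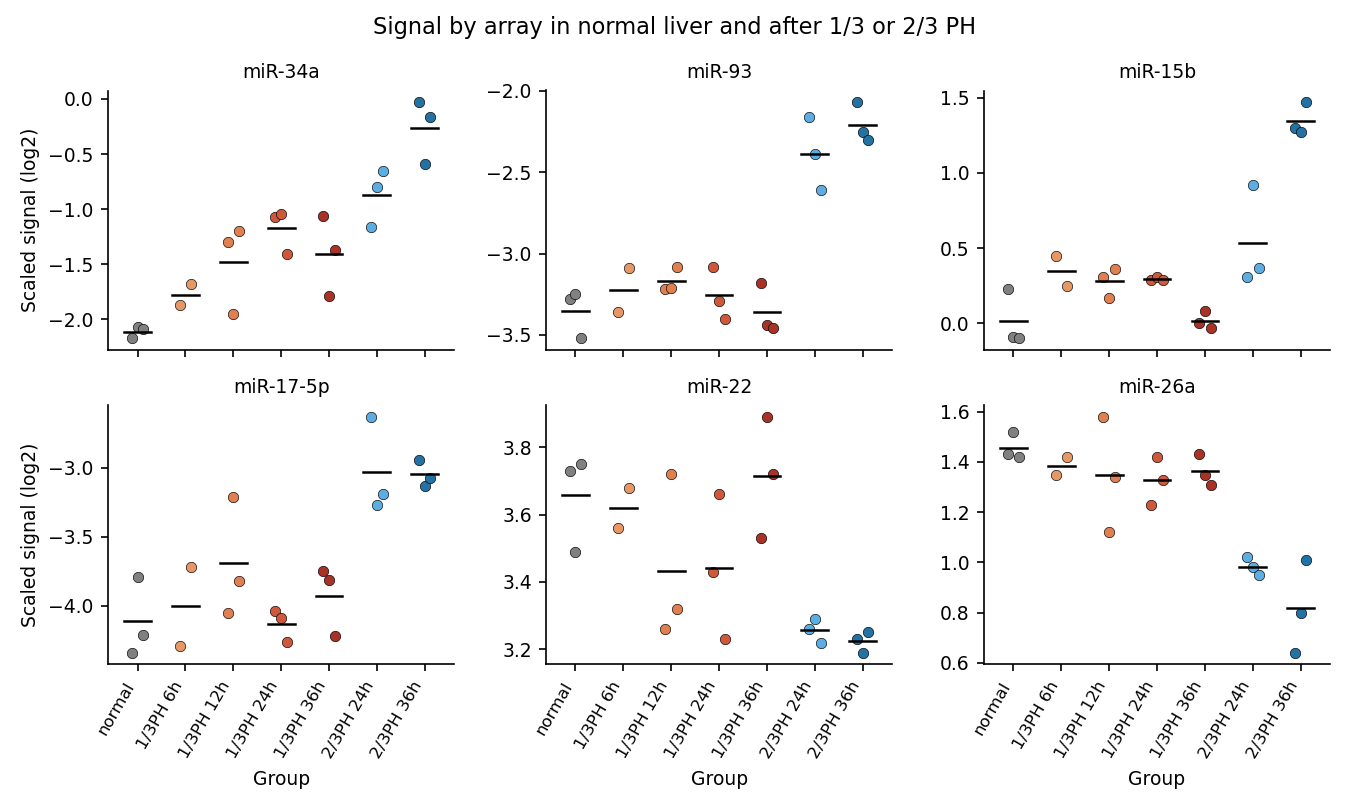
Log2 scaled signal (y axis) of 6 miRNAs in normal liver and after 1/3 or 2/3 PH (x axis), 1 point per array with lines at group means. For miR-93 and miR-15b the 36 h 1/3 PH arrays overlap the normal ones and lie below all 2/3 PH arrays shown, and for miR-34a they lie between normal liver and 2/3 PH at 36 h.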

How the data were processed

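The Agilent rat miRNA arrays carried 1 colour (Cy3). The authors scanned them with Agilent Feature Extraction 10.7.3.1 and deposited fluorescence intensity values per spot (13540 spots for 1644 probes), with flags for detection and outlying spots, and a table of log2 values for 699 features, whose normalization is not given in the sources used here. From the processed signal, spots marked as non-uniform or outlying were left out unless all of a probe were, spots were averaged, probes of a miRNA were summed, arrays were divided by the 75th percentile of those 109 probes whose signal cleared background throughout, signals were floored as described above, and log2 was taken without a pseudocount. The number of arrays limits the precision.

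limma 3.58.1 (R 4.3.3, lmFit, eBayes, residual df 17, prior df 2.32) was fitted to 26 arrays in 9 groups over the 144 miRNAs with a detection flag on all arrays of some group. The p-values were adjusted by the Benjamini-Hochberg method within each contrast. The fit was run on simulated data with independent errors and no slide, scan day or floor effects, so those effects were not tested there. Ratios under 0.8 or over 1.2 counted as altered. Named miRNAs were those with an unadjusted p under 0.05, the 10 highest and 10 lowest detected on all 6 arrays, the 5 brightest, list members and called miRNAs of other contrasts. The members and lists were chosen with earlier results of these data known. Tables were made in Python 3.11.15 with pandas 2.3.3 and numpy 2.4.6, permutation tests with scipy 1.17.1, and figures with matplotlib 3.10.9. Alternatives were another scaling, background correction, probe summary, floor or detection filter, the deposited table, slide or scan day as a block, only the groups compared, and each array left out. The 1 floor for all arrays, the comparison within 1 scan day, the altered counts without 36 h replicate 2 and normal replicate 2, and the fit without a dim 12 h array of 1/3 PH were added after seeing the data.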

Additional observations from a re-analysis of the deposited data

Results flagged for a closer look

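The change from normal liver at 36 h differed between the operations for 22 miRNAs, by a direct limma test of 2/3 PH minus 1/3 PH (log2, 3 arrays each, adjusted p from 1.62e-06 to 0.0472). Higher after 2/3 PH were miR-15b (1.33), miR-1949 (1.23, with 1 value after 1/3 PH at a floor), miR-93 (1.16), miR-34a (1.15), miR-7a (0.92), miR-200b (0.90), miR-17-5p (0.87, with 2 such values), miR-20b-5p (0.71), miR-25 (0.58), miR-106b (0.57), miR-345-5p (0.55), miR-130a (0.49), miR-92a (0.48) and miR-98 (0.35). Lower were miR-181a (-0.56), miR-26a (-0.55), miR-195 (-0.54), miR-22 (-0.49), miR-10a-5p (-0.46) and miR-125a-5p (-0.42). The other 2 rest on array floors, so that their fitted values do not measure a fold: miR-18a (1.27), detected on 1 of 3 arrays after 1/3 PH with 2 values there at a floor, and miR-338 (-0.72), detected on 1 of 3 arrays after 1/3 PH and 0 after 2/3 PH. With scan day as a block limma called 0 lower (5 at an unadjusted p under 0.05). Of the higher ones, miR-200b, miR-345-5p, miR-98 and miR-17-5p lost the call with scan day and with slide as a block. Their limma adjusted p was 0.116 and 0.0868, 0.126 and 0.0719, 0.189 and 0.133, and 0.157 and 0.0819. miR-7a lost the call with scan day (limma adjusted p = 0.0603), and miR-106b, miR-18a, miR-20b-5p and miR-92a lost it with slide. Among the lower ones, miR-10a-5p, miR-125a-5p, miR-181a and miR-338 turned in sign under another scaling or background correction. Slides and scan days differed between these groups, and their part in single differences was not tested beyond the blocks given above. miR-15b was called in 20 of 21 alternatives, and miR-93 and miR-34a in 19 each, whereas miR-125a-5p was called in 4 and miR-338 in 3 of 20. Calls in fewer than 11 of 21 were also found for miR-195 (5), miR-98 and miR-181a (6 each), miR-200b (8), miR-345-5p (9), and miR-17-5p and miR-22 (10 each). Groups of 3 arrays were not tested for outlying samples.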

How the results depend on the processing

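The count of calls against normal liver stayed at 0 under all 21 alternatives, leave-outs included (0 to 0). Without adjustment the count was 7, and 0 to 13 under the alternatives. Against 24 h after 1/3 PH it was also 0 (0 to 0 with an array left out), and 6 without adjustment. Between the operations at 36 h, 22 calls became 34 without adjustment, 0 without scaling, 5 with scaling over all probes, 12 with total gene signal, 10 in the deposited log2 values, 1 after normexp correction, 9 with slide as a random block, 13 with scan day as a block and 7 to 22 with an array left out. Against 2/3 PH at 24 h, 10 calls became 24 without adjustment, 0 without scaling, with scaling over all probes or after normexp correction, 5 with the brightest probe, 6 with total gene signal or only the 2 groups, and 1 to 7 with an array left out, where fewer arrays are tested. Otherwise the cause was not tested. The share altered (33.1%) was 77.4% with scaling over all probes, 3.01% after normexp correction, 1.5% at ratios under 0.5 or over 2, and 25.6% to 39.1% with an array left out; single 36 h arrays gave an SD of 8.47 percentage points. The sign turned or was lost with scaling over all probes for miR-1224 (-0.22), miR-27a (-0.28), miR-3559-5p (-0.24), miR-345-3p (-0.09) and miR-3085 (-0.06) against normal liver and for miR-10a-5p (0.03) and miR-125a-5p (0.07) between the operations; after normexp correction it turned for miR-150 (0.00), miR-210 (0.04), miR-148b-3p (0.05) and miR-30e* (0.06; 0.16 with total gene signal) against normal liver and for miR-10a-5p (0.11), miR-125a-5p (0.55), miR-181a (0.54) and miR-338 (0.51). The median over the 144 miRNAs between the operations was -0.12, and 0.36 and 0.51 in those settings. No paired analysis was made. The titles of the resected rats carry no replicate number, and the normal livers have no hour. The source labels give the hours 36, 37 and 38 in both operations at 36 h, and the 24 h groups share hours as well. These hours were not used as a block, so a pairing by hour was not tested. Low signal near the array floor limits what can be said of dim miRNAs.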

Other observations

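miR-500 had the lowest adjusted p of any setting in the comparison with normal liver, 0.0525 with scan day as a block (0.0525 to 0.997 over the 21 alternatives; difference -1.39, against -0.71 without the block). Its log2 signal was -0.96, -2.88 and -2.43 in normal replicates 1, 2 and 3 and -2.99, -2.47 and -2.95 in the 36 h livers, so that normal replicate 1, the array of the shared scan day, alone was high. The 2 livers at 6 h after 1/3 PH, on the same slide and scan day as normal replicate 1, had -1.02 and -1.20, while the 12 h liver of 1/3 PH on that slide had -2.05 and a 12 h liver on another slide had -1.41. The remaining 12 h liver, on a dim array of another scan day, stood at its floor of -3.21. The 1/3 PH livers at 24 h that shared the scan day had -3.29 and -2.87.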
